A study of Mus musculus with 8 samples.

Results

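The 32 genes described here are markers of medium spiny neurons, the principal neurons of the striatum. They were chosen as mouse striatum-enriched genes and matched by the RefSeq accessions that name the rows of the deposited table. All 32 had a row, out of 15978 rows in all. The table compares 5 brain RNA samples of male C9-BAC mice, which carried a bacterial artificial chromosome with human C9ORF72 and 500 G4C2 repeats, with 3 samples of male wild-type mice, all on an SJL/Bl6 background. The comparison asks what the repeat transgene does to the brain transcriptome. The labels give no age, brain region, transgenic line or batch. They do not say whether the samples came from separate mice, so each p-value reflects the scatter among these samples alone, which may be technical. The table holds 1 value per gene for the whole comparison, without values per sample, and it does not say which genotype is the numerator. Signs are therefore as deposited, and no gene is called higher or lower in 1 genotype.

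Medium spiny neurons are inhibitory projection neurons that receive dopamine. Those of the direct pathway carry the dopamine receptor D1 with substance P and dynorphin, and those of the indirect pathway carry the D2 receptor with an adenosine receptor, Adora2a, and enkephalin. D1 receptors act through the G protein subunit Golf and adenylyl cyclase 5 to raise cAMP, D2 receptors lower it, and the phosphodiesterases break it down. DARPP-32, encoded by Ppp1r1b, integrates these signals by inhibiting protein phosphatase 1.

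The promoters of 4 receptor and marker genes are shown because they belong to genes on which the results below turn: Drd1 and Drd2 separate both kinds of neuron, and Drd2, Gpr6 and Lrrc10b had standard errors among the smallest for their abundance. Each line gives the 200 bases before the start in RefSeq, GRCm38.p6, 5′ to 3′ on the gene's strand, with GC boxes (GGGCGG, or CCGCCC on the other strand) and the cAMP response element (TGACGTCA, the same on both strands) in capitals. For Drd1, at chr13:54055659-54055858 on the minus strand, the outer of its starts was used and holds no GC box; the stretch before its other start, chr13:54054781-54054980, holds 1. Drd2 is at chr9:49340203-49340402 on the plus strand, before a start that lies inside the outer bounds of the gene given below, Gpr6 at chr10:41072291-41072490 on the minus strand and Lrrc10b at chr19:10457448-10457647 on the minus strand.
Drd1: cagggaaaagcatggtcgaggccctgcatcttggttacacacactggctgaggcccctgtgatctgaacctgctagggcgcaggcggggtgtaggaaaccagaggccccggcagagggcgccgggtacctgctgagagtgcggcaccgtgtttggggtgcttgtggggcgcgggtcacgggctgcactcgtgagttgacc
Drd2: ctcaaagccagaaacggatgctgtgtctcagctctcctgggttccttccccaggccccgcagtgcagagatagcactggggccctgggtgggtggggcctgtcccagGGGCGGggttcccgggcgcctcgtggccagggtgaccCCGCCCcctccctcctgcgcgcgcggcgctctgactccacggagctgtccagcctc
Gpr6: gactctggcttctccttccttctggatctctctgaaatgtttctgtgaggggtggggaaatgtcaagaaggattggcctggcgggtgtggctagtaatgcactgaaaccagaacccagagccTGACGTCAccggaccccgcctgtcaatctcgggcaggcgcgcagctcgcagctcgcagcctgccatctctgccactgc
Lrrc10b: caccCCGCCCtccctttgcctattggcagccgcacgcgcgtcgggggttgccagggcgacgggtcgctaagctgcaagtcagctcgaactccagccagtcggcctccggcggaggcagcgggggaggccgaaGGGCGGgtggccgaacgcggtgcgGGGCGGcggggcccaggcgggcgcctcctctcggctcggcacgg

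RefSeq promoters were matched for 23 of the 32 genes. In the 250 bases before the start, 13 of these 23 genes (56.5%) held a GC box at 1 or more starts, against 35.4% of 27025 genes with a promoter. The cAMP response element TGACGTCA was found in 1 of the 23, Gpr6, and in 1.77% of all genes. Its core TGACG, which the full element contains, was found in 6 of 23 (26.1%) and in 19.8% of all genes. The motif TGACAG, bound by MEIS proteins, was found in 6 of 23 (26.1%) and in 18.0% of all genes. The TATA box TATAAA was found in 2 of 23 (8.70%) and in 14.3% of all genes, and the forkhead motif TGTTTAC in 1 of 23 (4.35%) and in 3.54%. The direct repeat bound by retinoic acid receptors, with 5 spacer bases, was found in 0 of 23 and in 0.0111% of all genes. Both strands were searched for every motif. These matches describe the letters in the window and do not show binding.

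No striatal gene passed the test between the genotypes over all genes. Of the 32, 0 had a DESeq2 adjusted p under 0.05 in the authors' deposited table and 0 an unadjusted p under 0.05, where over all 15944 rows with a p the shares were 0% and 1.50%. The smallest unadjusted p of a member was 0.207, for Strip2, and the authors' deposited table lists a DESeq2 adjusted p of 0.9997 for every member. Fold changes are given below on the log2 scale, ± the deposited standard error. Those of the members ran from -0.11 to 0.072 in the authors' deposited table, and 26 of 32 (81.3%) lay within 0.05 of 0, against 51.7% of all rows. The median deposited standard error was also smaller, 0.066 for the members and 0.102 for all rows. As set out below, small values of both need not mean a small difference between the genotypes. Signs of the members leaned to one side, with 25 negative and 7 positive, where 52.6% of all rows were negative. The median fold change was only -0.0080, against -0.0044 over all rows. Centred on the median of all rows, which splits those rows evenly by construction, 21 members were negative and 11 positive. Over the table the statistic rose with transcript GC content, with a Spearman correlation of 0.416. After the trend of the statistic with GC content and length was taken off, 27 members were negative and 5 positive. Of the 15869 rows with GC content and length, 49.4% were then positive. The median GC content was 53.0% for the members and 50.3% for all rows. In RNA from whole tissue, a difference in the number of cells of a type and a difference in RNA per cell cannot be told apart.

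**Figure D1:**
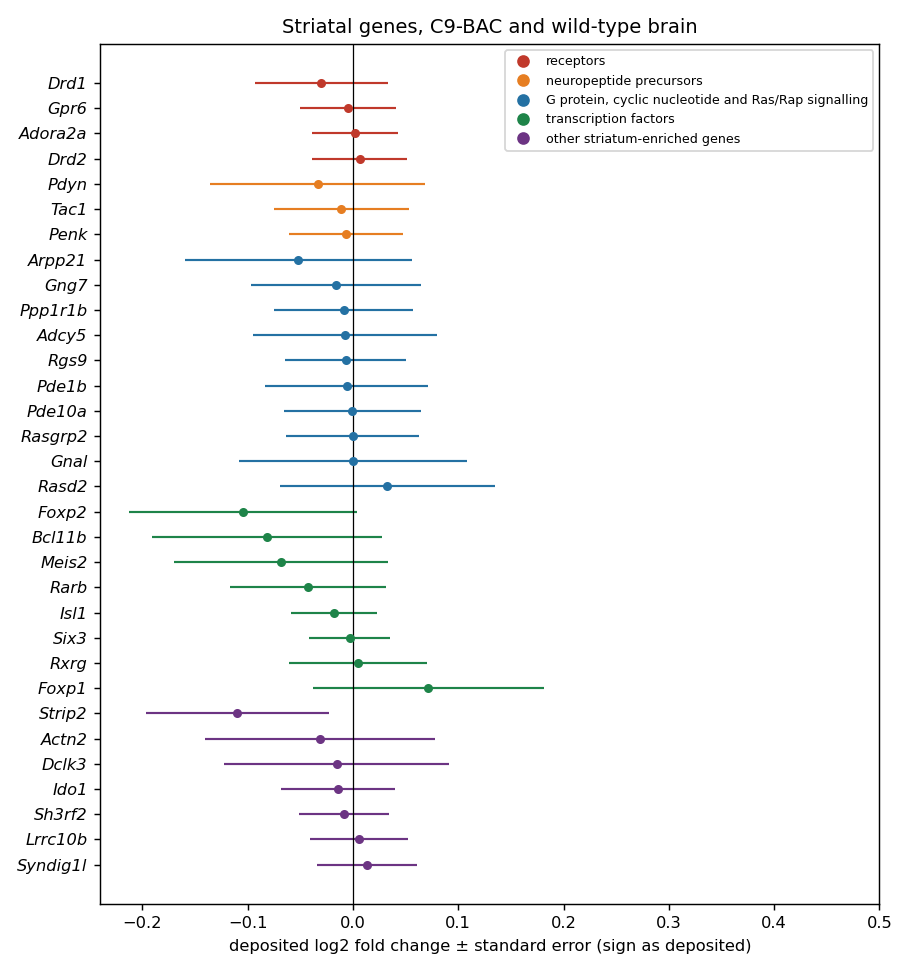
Deposited log2 fold change (horizontal axis, sign as deposited) of each of the 32 striatal genes, grouped by role and coloured as in the key; bars are the deposited standard errors. All values lie between -0.11 and 0.072, and only the bar of Strip2 does not reach 0.

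The levels of the striatal genes over all samples spanned a wide range. Mean normalized counts, the authors' mean over all samples of counts divided by size factors, ran from 10.1 for Ido1 to 5495 for Arpp21 in the authors' deposited table, with a median of 429.3, and 27 of 32 reached 100. Per 1000 bases of the longest matched transcript, 23 of 32 lay above the median of all rows, 59.7. On this scale Arpp21, a cAMP-regulated phosphoprotein gene, came first at 1607, then Pde1b at 809.4 and Penk at 722.6. Next came Adcy5 at 451.7, Rgs9 at 432.2, Pde10a at 413.6 and Meis2 at 411.3 per 1000 bases. The order depends on the transcript: over the shortest matched one, Arpp21 stayed first at 3257, Pde10a at 889.9 came ahead of Pde1b at 819.4 and Penk at 722.6, and Meis2 at 544.2 came ahead of Gnal, Foxp1, Rgs9 and Adcy5. The signalling genes held the upper part of the order, with all 10 above the median of all rows. The lowest 4 per 1000 bases were Sh3rf2 at 14.8, Isl1 at 7.93, Ido1 at 6.09 and Six3 at 4.85. Without values per sample, no spread can be given for this order, so neighbours in it cannot be told apart.

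**Figure D2:**
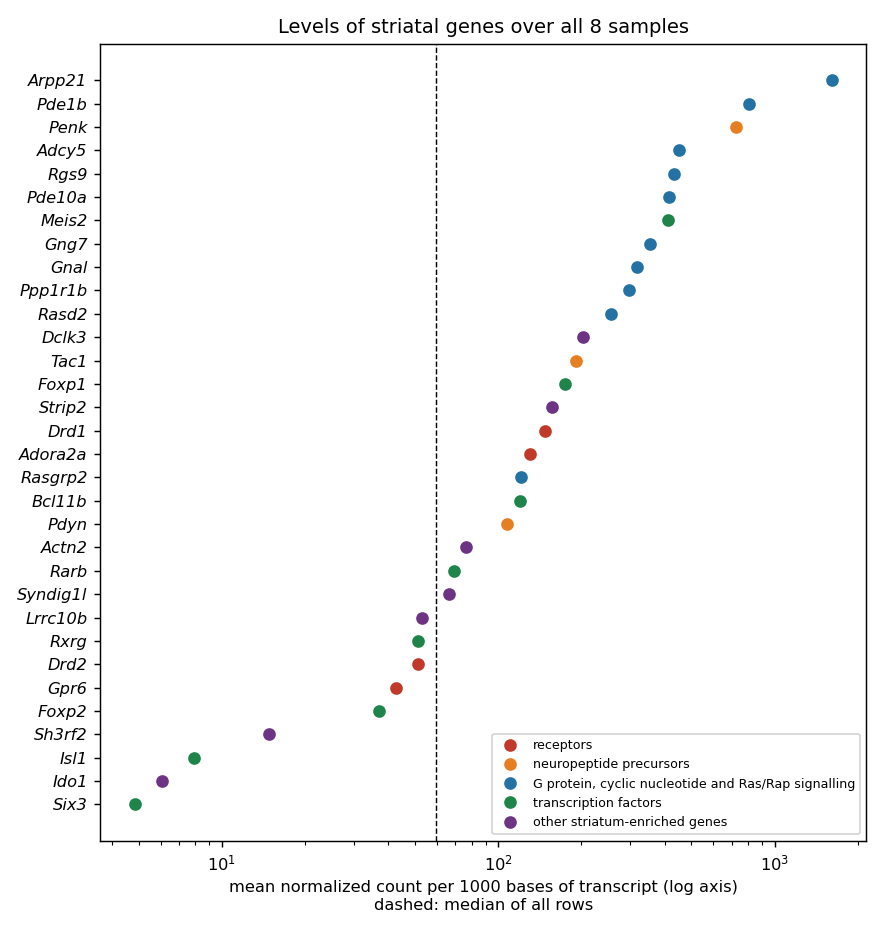
Mean normalized count per 1000 bases of transcript (the longest matched one; horizontal log axis) of the 32 striatal genes in descending order, coloured by role; the dashed line is the median of all rows, 59.7. Signalling genes fill most of the upper part, from Arpp21 at 1607, and Six3 is lowest at 4.85.

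Among the receptors, Drd1 encodes the D1 dopamine receptor and lies on chromosome 13 at 54051183 to 54055658 (mm10). The authors' deposited table lists it at a mean normalized count of 520.0, with a fold change of -0.030 ± 0.063 (p = 0.634). Drd2 encodes the D2 dopamine receptor, on chromosome 9 at 49340360 to 49408177. It was listed by the authors' deposited table at 130.9 normalized counts, with 0.0063 ± 0.045 (p = 0.888). Adora2a, an adenosine receptor gene on chromosome 10 at 75316877 to 75334792, stood at 338.6 normalized counts and 0.0023 ± 0.041 in the authors' deposited table (p = 0.956). Gpr6, an orphan receptor gene of indirect pathway neurons on the same chromosome, stood at 76.4 normalized counts and -0.0047 ± 0.045 in the authors' deposited table. The receptors thus had fold changes near 0 and standard errors well under the median of all rows, 0.102.

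The neuropeptide precursors gave the same picture for 2 of 3 genes. Penk encodes proenkephalin, the precursor of the enkephalins. In the authors' deposited table it stood at 1047 normalized counts and -0.0067 ± 0.054. Tac1, whose product gives rise to substance P, stood at 234.6 normalized counts and -0.011 ± 0.064 in the authors' deposited table. Pdyn encodes prodynorphin and is also transcribed in other brain regions, such as the hippocampus. The authors' deposited table lists it at 257.1 normalized counts and -0.033 ± 0.102, a standard error equal to the median of all rows at this rounding.

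The 10 genes of G protein, cyclic nucleotide and Ras or Rap signalling had 9 negative fold changes and 1 positive in the authors' deposited table, with a median of -0.0064. Ppp1r1b, the DARPP-32 gene on chromosome 11 at 98348406 to 98357796, stood at 593.6 normalized counts and -0.0090 ± 0.066 in the authors' deposited table (p = 0.893). Pde10a and Pde1b encode phosphodiesterases that break down cyclic nucleotides. The authors' deposited table gives -0.00052 ± 0.065 for Pde10a and -0.0059 ± 0.078 for Pde1b, at 3213 and 2637 normalized counts. Rgs9, a regulator that speeds up the switching off of G proteins, stood at 1052 normalized counts and -0.0070 ± 0.057 in the authors' deposited table. For the adenylyl cyclase gene Adcy5 the authors' deposited table gives 3165 normalized counts and -0.0077 ± 0.087. Gnal and Gng7 encode the alpha subunit of Golf and a gamma subunit that works with it. The authors' deposited table has Gnal at 1814 normalized counts and -5.0e-05 ± 0.109, and Gng7 at 1208.5 and -0.016 ± 0.081. Rasgrp2, an activator of Rap proteins, stood at 264.0 normalized counts and -0.00039 ± 0.063 in the authors' deposited table. Rasd2, the small GTPase Rhes, was the positive one, with 717.9 normalized counts and 0.033 ± 0.102 in the authors' deposited table. Arpp21, the most abundant, was listed at -0.052 ± 0.108 by the authors' deposited table (p = 0.630).

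The transcription factors held 5 of the 6 members of smallest p, and none passed. Foxp2, a forkhead factor, stood at 250.6 normalized counts and -0.10 ± 0.108 in the authors' deposited table (p = 0.333). Bcl11b, also called Ctip2, stood at 971.2 and -0.082 ± 0.109 in the authors' deposited table (p = 0.455). For the homeobox gene Meis2 the authors' deposited table gives 1529 normalized counts and -0.068 ± 0.102 (p = 0.501). The forkhead gene Foxp1, at 1252 normalized counts, was the positive one of these with 0.072 ± 0.109 in the authors' deposited table (p = 0.512). Rarb, a retinoic acid receptor gene, stood at 214.8 normalized counts and -0.042 ± 0.074 in the authors' deposited table (p = 0.568). As background, Foxp1, Foxp2 and Bcl11b are also transcribed in layers of the cerebral cortex. Rxrg, a retinoid X receptor gene whose product pairs with retinoic acid receptors, stood at 108.5 normalized counts and 0.0046 ± 0.066 in the authors' deposited table. Isl1 and Six3 are developmental factors of direct and indirect pathway neurons. The authors' deposited table lists Isl1 at only 19.96 normalized counts with -0.018 ± 0.041, and Six3 at 17.8 with -0.0029 ± 0.038. Rarb overlaps Top2b and Six3 overlaps Six3os1 on the opposite strand, so reads could be shared if strand was not used in counting, which the sources used here do not give. Arpp21 and Gnal also overlap other genes of the table. For Gnal these include Chmp1b on the same strand, where strand would not separate shared reads.

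Of the remaining 7 striatum-enriched genes, Strip2, which acts in a complex of kinases and phosphatases, had the fold change farthest from 0 among all 32. It lies on chromosome 6 at 29916976 to 29959681 and stood in the authors' deposited table at 837.7 normalized counts and -0.11 ± 0.087 (p = 0.207, DESeq2 adjusted p = 0.9997). Syndig1l, a membrane protein gene, stood at 166.8 normalized counts and 0.014 ± 0.047 in the authors' deposited table. The leucine-rich repeat gene Lrrc10b was listed at 111.3 normalized counts and 0.0054 ± 0.047 by the authors' deposited table. For Sh3rf2 the authors' deposited table gives 75.3 normalized counts and -0.0084 ± 0.043. The kinase gene Dclk3 stood at 608.1 and the actinin gene Actn2 at 230.3 normalized counts, with -0.015 ± 0.107 and -0.032 ± 0.109 in the authors' deposited table. Ido1, which encodes an enzyme of tryptophan breakdown, had -0.014 ± 0.054 in the authors' deposited table, at the lowest mean normalized count of the members.

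Many striatal genes had small standard errors for their abundance. Against rows of like mean normalized count, in 20 bins of equal size, 20 of 32 members (62.5%) had a standard error under the 10th percentile, where the share over the rows that are not members was 9.91%, close to 10% by construction. Of the 27 members at 100 normalized counts or more, 15 did. In the authors' deposited table the 50 smallest standard errors among the 9624 rows at or above 100 included 12 striatal genes, which is 24% of those 50 rows and 44.4% of the 27 members. Adora2a stood 3rd in that order, Drd2 8th, Lrrc10b 10th and Syndig1l 11th, followed by Penk (16th), Rgs9 (18th), Drd1 (28th), Rasgrp2 (29th), Tac1 (31st), Pde10a (36th), Rxrg (37th) and Ppp1r1b (43rd). The median over rows of like mean was 0.104 for Adora2a and 0.109 for Drd2, against the 0.041 and 0.045 given for these genes in the authors' deposited table. All 4 receptors and 6 of the 10 signalling genes were under the 10th percentile.

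The other 12 members were not under the 10th percentile. For Strip2, Pdyn and Adcy5 the percentiles were 10.7, 25.7 and 26.2. Those above the 50th percentile were 9: Rasd2 (58.8), Meis2 (62.3), Foxp2 (67.0), Dclk3 (74.0), Actn2 (77.2), Arpp21 (87.0), Gnal (88.3), Bcl11b (90.8) and Foxp1 (92.8). The striatal list was thus split between genes at the lower edge of the standard errors and genes in the body of the distribution, with 3 members between.

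**Figure D3:**
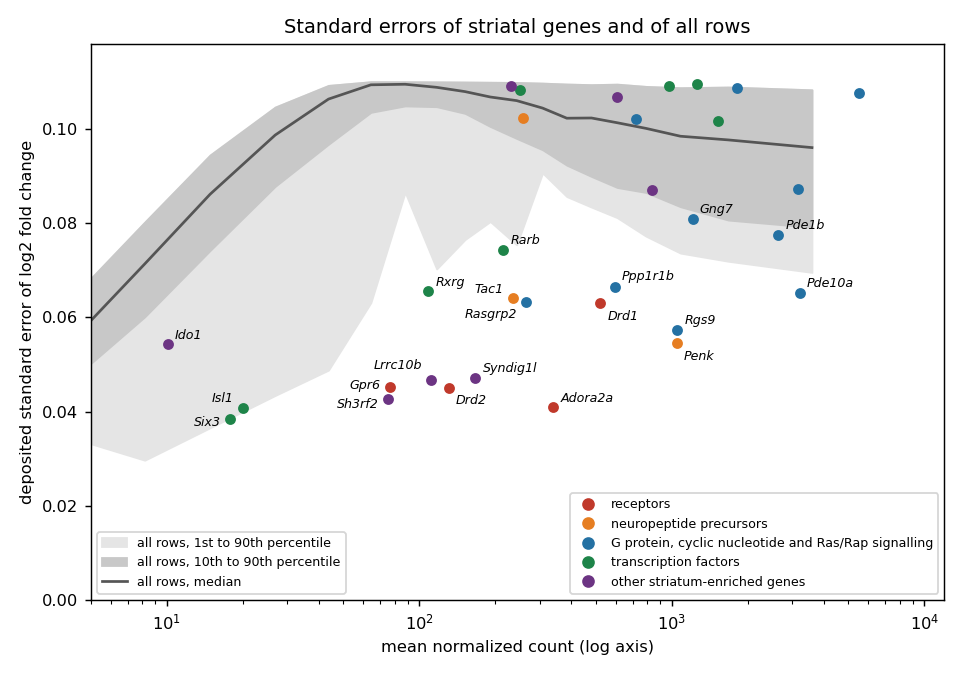
Deposited standard error (vertical axis) against mean normalized count (horizontal log axis) for the 32 striatal genes, coloured by role, over the range of all rows in 20 bins of equal size (line: median; dark band: 10th to 90th percentile; pale band: down to the 1st percentile). Named genes are the 20 members under the 10th percentile; Adora2a at 338.6 has a standard error of 0.041.

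These small standard errors need not mean precise values. Over the whole table the median standard error rose from 0.096 in the bin of highest counts to 0.109 in the bin of 75.9 to 101.3 normalized counts, fell to 0.039 in the bin of lowest counts, and no row exceeded 0.110, the form that DESeq2 gives where a normal prior centred on 0 pulls fold changes toward 0; no source used here records this step. If it was used, the standard error before the prior can be solved from the deposited one, with 2 solutions, a narrow one for genes with much information on the fold change and a wide one for genes with little. The largest standard error then sets the SD of the prior at 0.22 on the log2 scale. The narrow solution cannot hold where it is more precise than counting noise alone allows for samples of equal depth with 5 and 3 per group. The wide solution stayed within that limit in every row, with 0 of 15978 above it. Except at low counts its form allows no other outcome, so that count is no check on the prior. In this approximation the p-value is the same with and without the prior.

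For 10 striatal genes only the wide solution was possible. They were Drd2, Adora2a, Gpr6, Rxrg, Isl1, Six3, Syndig1l, Lrrc10b, Ido1 and Sh3rf2. Over all rows 4401 of 15978 (27.5%) were so placed. Of the 10, 5 lay under 100 normalized counts, where 68.8% of rows were so placed, and 5 reached 100, where 28 of 9624 rows (0.291%) were. Without the prior, Adora2a would have a log2 fold change of 0.063 ± 1.14, a 95% interval of -2.17 to 2.30. Drd2 would have 0.14 ± 1.03 (-1.87 to 2.16), Syndig1l 0.28 ± 0.98 (-1.63 to 2.19) and Lrrc10b 0.12 ± 0.99 (-1.82 to 2.05). All 10 intervals covered a 2-fold difference in either direction. A deposited fold change close to 1 for these genes would then set no close bound on the difference between the genotypes.

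The wide solution corresponds to a wide spread between samples of the same genotype. Expressed as a coefficient of variation beyond counting noise, it was 108.2% for Adora2a, 97.4% for Drd2, 93.3% for Lrrc10b, 92.3% for Syndig1l and 62.5% for Rxrg. Among the 28 rows at 100 normalized counts or more with this solution only, ordered by that coefficient, Adora2a was 3rd and Drd2 6th. The rows ahead of Adora2a were Gm14305 and the pseudogene Morf4l1-ps1, and between Adora2a and Drd2 stood the haemoglobin gene Hbb-bt at 104.0% and the olfactory bulb gene Cdhr1 at 100.4%. These other genes were chosen after their values were seen.

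For the other 22 members both solutions were possible and the table does not decide between them. Penk would have a standard error of 0.830 or 0.058 before the prior, a coefficient of variation of 78.8% or 4.59%. Drd1 would have 0.700 or 0.069, and Ppp1r1b 0.655 or 0.074. The narrow solution lay nearest the counting limit for Tac1 and Rasgrp2, with coefficients of variation of only 1.52% and 2.38%. In the wide case 8 of the 22 intervals covered a 2-fold difference in either direction, and in the narrow case 0 did. For members near the largest standard error the solutions were close together: 0.244 and 0.199 for Foxp1, 0.252 and 0.192 for Bcl11b, and 0.259 and 0.187 for Gnal. Their 95% intervals were bounded even in the wide case, at -0.32 to 0.64 for Foxp1, -0.68 to 0.31 for Bcl11b and -0.51 to 0.51 for Gnal.

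**Figure D4:**
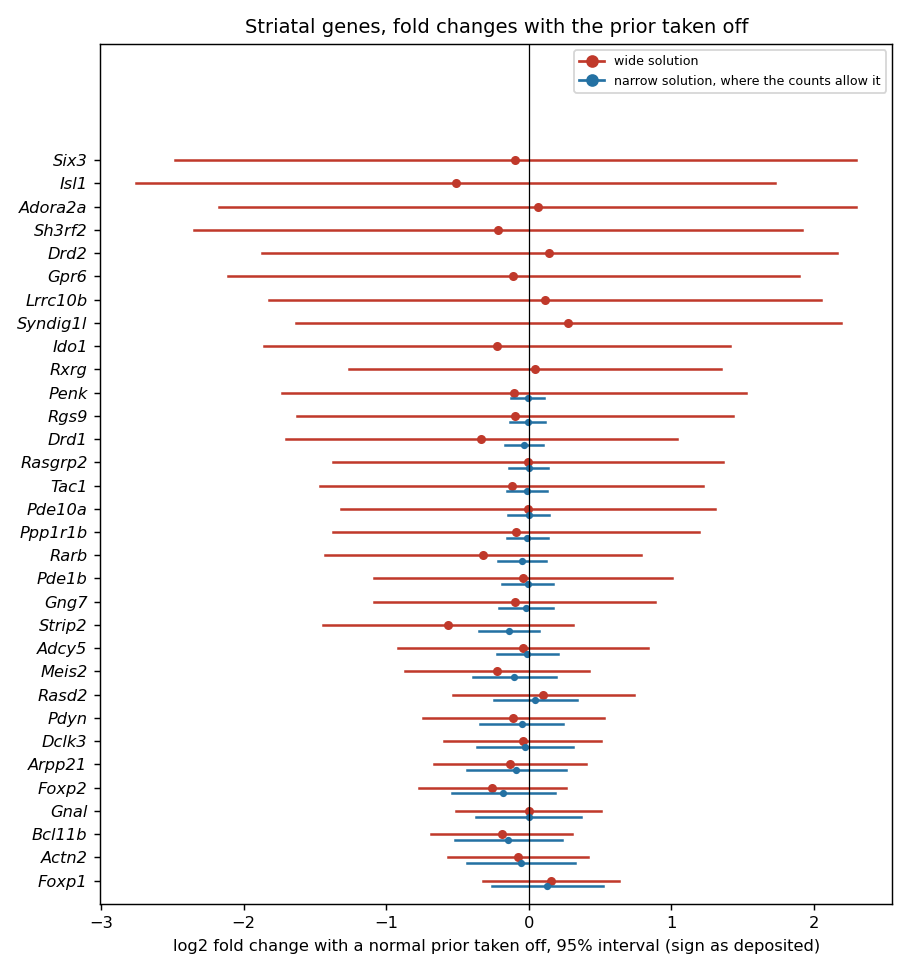
Log2 fold change (horizontal axis, sign as deposited) of the 32 striatal genes with a normal prior taken off; points are the solved values and bars 95% intervals. Red is the wide solution, the only one for the 10 genes at the top, and blue the narrow one; every interval covers 0, and that of Adora2a runs from -2.17 to 2.30.

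Direct and indirect pathway genes both had deposited fold changes near 0. The 4 direct pathway genes Drd1, Tac1, Pdyn and Isl1 had a median of -0.024 in the authors' deposited table, with 0 positive. The 4 indirect pathway genes Drd2, Adora2a, Penk and Gpr6 had a median of -0.0012, with 2 positive, in the authors' deposited table. The difference between these groups was not tested. With a prior taken off in the wide solution, the values ran from -0.51 for Isl1 to 0.14 for Drd2. Their intervals were -2.75 to 1.73 and -1.87 to 2.16. The wide solution is the only one for Isl1, Drd2, Adora2a and Gpr6. Drd1 had -0.33 (interval -1.70 to 1.04) in the wide solution and -0.033 in the narrow one, which is also possible for it. The interval of every gene in both groups covered 0. All 4 indirect pathway genes and 3 of the 4 direct pathway genes had standard errors under the 10th percentile of rows of like mean.

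Further genes of the pathway and of the striatum did not pass the test either. Of 47 further dopamine and cAMP pathway genes, 0 had an adjusted p under 0.05 and 1 an unadjusted p under 0.05, with 24 positive and a median of 0.0012 in the authors' deposited table. The smallest p belonged to Gnb2, a G protein beta subunit, in the authors' deposited table at 0.23 ± 0.095 (p = 0.0151, DESeq2 adjusted p = 0.9997), followed by the regulator Rgs2 at -0.16 ± 0.101. Standard errors of this list were spread like those of the table, with 2 of 47 under the 10th percentile. Of 40 further striatum-enriched genes, 39 had a row, 14 of them positive in the authors' deposited table, and 10 of 39 (25.6%) had standard errors under the 10th percentile. Of the 25 at 100 normalized counts or more, only 3 did. Among the 10 was the sodium channel subunit gene Scn4b, at 0.076 with 1248 normalized counts in the authors' deposited table. Htr2c, a serotonin receptor gene, had the smallest p of this list, in the authors' deposited table at -0.27 ± 0.108 (p = 0.0120, DESeq2 adjusted p = 0.9997), and Ptpn5, the striatal phosphatase STEP, came next at 0.14 ± 0.108.

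Small standard errors were shared with markers of some other regions and cell types and not with others. Under the 10th percentile were 8 of 12 olfactory bulb and neuroblast genes, 5 of 7 hypothalamic genes, 6 of 12 striatal interneuron genes, 3 of 11 thalamic genes and 2 of 6 genes of midbrain dopamine neurons. Calb2 was counted for both olfactory bulb and thalamus, and Th for both interneurons and midbrain. At 100 normalized counts or more, 4 of 5 olfactory bulb, 1 of 2 hypothalamic and 2 of 6 thalamic genes were. For interneurons it was 0 of 6, and for midbrain dopamine neurons 0 of 2. Among the interneuron genes, Chat and Slc5a7, which mark cholinergic neurons, lay at percentiles of 0.939 and 0.564. In the remaining lists of regions and cell types, 0 of 16 genes of cortical excitatory neurons, 0 of 9 of the cerebellum, 0 of 8 of microglia and 0 of 8 of endothelial cells were under the 10th percentile, and 1 each of 8 astrocyte, 8 oligodendrocyte and 9 hippocampal genes. No gene of these lists passed the DESeq2 adjusted p in the authors' deposited table, where Slc5a7, Lhx8, Doc2g, Eomes, Tbx21 and Oxt have no p. Median log2 fold changes there were -0.029 for the olfactory bulb, 0.039 for the cortex and -0.014 for striatal interneurons, against -0.0080 for the striatal genes. The labels name the tissue only as brain. The part that the amount of striatum or of other regions in each sample has in these standard errors was not tested.

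**Figure D5:**
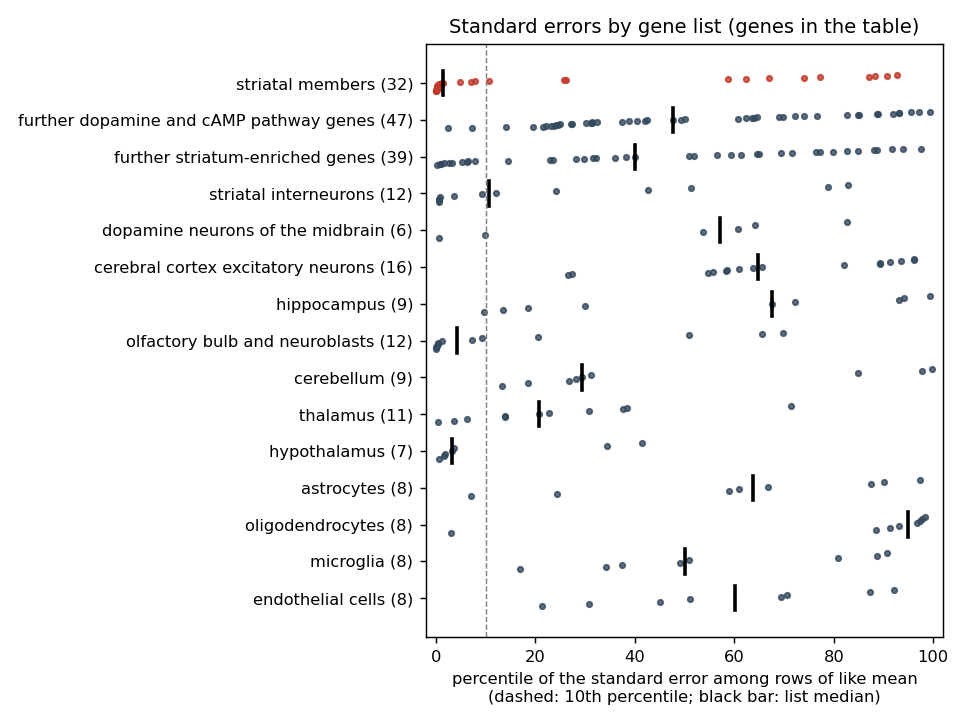
Percentile of the deposited standard error among rows of like mean normalized count (horizontal axis) for each gene of the striatal list (red) and of 14 other lists (dark), with the number of genes found; black bars are list medians and the dashed line the 10th percentile. The striatal median is 1.38, the olfactory bulb median 4.26 and the cortical median 64.7.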

How the data were processed

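Brain RNA of 5 C9-BAC and 3 wild-type samples was sequenced from strand-specific libraries made without poly(A) selection, per the labels' protocols. Trimmomatic, Bowtie2, DESeq and DESeq2 with build mm10 are named per the submitters' processing notes; the sources used here give no counter, annotation or options. The deposited mean normalized count is a signal averaged by the authors over the samples, and sums to 9226666. Per the file headers, the authors gave fold changes and their standard errors in log2 units. The deposited Wald statistic is a score, and the deposited p-value and adjusted p-value follow from it; these relations were recomputed on every row and differed by at most 8.3e-07. Of all rows, 34 have no p.

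Symbols came from RefSeq accessions (15857 rows) and GENCODE vM21 (73), and transcript length and GC content from vM21 (99.3% of rows). The tests are the authors' own over all rows. Computed here with Python 3.11.15 were percentiles of standard errors in 20 bins, levels per 1000 bases, promoter motif searches and the solutions with a normal prior taken off. These solutions were tested on simulated data fitted with such a prior, known spreads and equal depths. That test cannot show whether the authors used a prior. Alternatives were filters at 10 and 100, rescaling, centring, GC and length trends, transcript choice and the counting limit. All 32 members are named. For the further pathway genes and the further striatum-enriched genes, the 2 of smallest p among those at 10 normalized counts or more are named. Other genes named, including those from lists of regions and cell types, were singled out after their values were seen. The members and lists were chosen with earlier results of these data known.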

Additional observations from a re-analysis of the deposited data

How the results depend on the processing

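The counts of 0 striatal genes at an adjusted p under 0.05 and 0 at an unadjusted p under 0.05 (DESeq2) held with filters at 10 and 100, centring, rescaling of the statistic and removal of the GC content and length trend; the smallest unadjusted p of any member over these settings was 0.121. Over all rows the share at an unadjusted p under 0.05 was 4.96% with rescaling and 6.31% with the trend removed, against 1.50% as deposited, and the latter gave 3 rows at an adjusted p under 0.05 against 0. The 20 small standard errors stayed 20 with rows within a narrow window of the mean and with rows of like GC content, and were 15 of 27 at a mean normalized count of at least 100. Centring on the median of all rows raised the positive members from 7 to 11, because many values lie close to 0. With the prior taken off, the median log2 fold change of the members was -0.094 in the wide solution for all and -0.0091 in the narrow one for all, against -0.0080 as deposited. The narrow median includes the 10 members for which that solution cannot hold. Over all rows the same medians were -0.017, -0.0058 and -0.0044, and the narrow one again includes rows for which that solution cannot hold. Members with the wide solution only numbered 10, and 5 with a mean of at least 100, since 5 members lie under that level. A moderately higher counting limit, for samples of unequal depth, and a slightly lower value for the largest standard error, both chosen after seeing the data, left 10. In information on the fold change, the narrow solution exceeded the limit by a factor of only 1.82 for Adora2a and 1.94 for Rxrg. A limit raised by more than these factors would allow both solutions for these genes. No fit without 1 sample could be made from a table of 1 value per gene. No paired analysis was possible because the genotypes share no replicate numbers and the table holds no values per sample.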
